A study of Mus musculus with 25 samples.

Results

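The genes described here are the 4 Mef2 transcription factors of the mouse, Mef2a, Mef2b, Mef2c and Mef2d, and the 4 class IIa histone deacetylases that repress them, Hdac4, Hdac5, Hdac7 and Hdac9. They were chosen by name, and these 8 of the 26182 genes with a curated RefSeq transcript were located on the mouse genome (GRCm38). The values come from ChIP-seq of primary myoblasts from limb muscle of 10-day-old C57BL/6 mice (postnatal day 10, C57BL/6 N in the study's methods), in which chromatin was precipitated with a custom antibody against the histone reader Spin1 or with an antibody against histone H3 trimethylated at lysine 4 (H3K4me3), the mark that Spin1 binds. There was 1 library for each antibody, with an input library as the control for peak calling, and the question was where Spin1 and H3K4me3 lie at the Mef2 and class IIa genes in muscle precursor cells. The cells had been separated from other muscle cells by how fast they adhere to the dish and were grown in culture, so they are not a sorted population.

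Mef2 proteins bind AT-rich sites in the promoters and enhancers of muscle genes and work together with the myogenic factors of the MyoD family to turn on muscle differentiation. Class IIa deacetylases dock onto Mef2 through their amino-terminal part and bring in corepressors, which keeps Mef2 targets silent in proliferating myoblasts. When calcium-dependent and related kinases phosphorylate them, 14-3-3 proteins bind and carry them out of the nucleus, and Mef2 is released.

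The deposited lists held 17106 Spin1 peaks and 30763 H3K4me3 peaks, each with a position and a MACS score (the p-value of the peak on a negative log10 scale, multiplied by 10). Coordinates are counted from 1. A promoter was taken as the 1 kb on each side of a transcription start site (TSS), with start sites of a gene that lie within 1 kb of their neighbour joined into 1 promoter, and a peak was assigned to it when they shared at least 1 bp. Promoters of a gene are numbered from 5′ to 3′. Read depth is not given, the score rises with depth and with peak width, and scores pile up at 3100, so scores are compared only within a list. Of the 11797 Spin1 peaks that overlapped a promoter, 43.9% had a score of at least 3100, as had 84.1% of the 14605 H3K4me3 peaks at promoters. There were no replicates, so differences between genes could not be set against a spread and all counts are descriptions.

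The label of the cells was checked on marker genes. Over all genes, 50.7% had Spin1 and 61.9% had H3K4me3 at a promoter. All 8 myoblast markers (Pax7, Myf5, Myod1, Myog, Des, Cdh15, Itga7 and Chrna1) had both Spin1 and H3K4me3 at a promoter, with a widest H3K4me3 peak of 17266 bp at Pax7. Of the 5 fibroblast markers, Pdgfra, Col1a1, Col3a1 and Tcf7l2 had both and Thy1 had H3K4me3 alone. The 3 endothelial markers had no Spin1 peak, with H3K4me3 at Cdh5 and Tek and nothing at Pecam1. Among 3 haematopoietic markers, Ptprc and Spi1 had neither, and Cd68 had a 571 bp H3K4me3 peak with a score of 51.8. Adipoq and Plin1 of the 3 adipocyte markers had neither, while Cidea had both, with a weak Spin1 peak of 675 bp and a score of 121. For smooth muscle, Acta2 had both and Myh11 had H3K4me3 alone. Markers of fibroblasts were thus occupied along with those of myoblasts, and the part that other cells have in the peaks below was not tested.

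Spin1 had a peak at a promoter of 6 of the 8 genes, Mef2a, Mef2c, Mef2d, Hdac4, Hdac5 and Hdac7, where 50.7% of all genes had one (95% Wilson interval 50.1 to 51.3). H3K4me3 was at a promoter of all 8, compared with 61.9% of all genes (61.3 to 62.5). Both marks shared a promoter in 6 of the 8, and in 50.6% of all genes. These intervals cover counting error only. All 8 genes code for proteins, and among the 21000 protein-coding genes the shares were 56.7% for Spin1 and 68.0% for H3K4me3. Of genes with H3K4me3 at a promoter, 81.7% also had Spin1 at a promoter, beside the same 6 of 8 here. The genes without Spin1 were 1 of each family, Mef2b and Hdac9. When the centre of a peak had to lie inside the promoter, H3K4me3 was at 5 of the 8 and both marks at 2, since several H3K4me3 peaks run far into the gene. The shares of all genes under that rule were not computed, so those above do not apply to it.

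Curated transcripts gave the 8 genes 14 promoters. Of these, 8 had Spin1, beside 48.3% of all promoters, and 11 had H3K4me3, beside 60.3%. All 8 with Spin1 also had H3K4me3, as did 99.8% of all promoters with Spin1. The other 6 divided evenly: H3K4me3 alone lay at Mef2b, at promoter 3 of Hdac7 and at promoter 2 of Hdac9, and neither mark lay at promoter 4 of Mef2c or at promoter 1 of Hdac7 and of Hdac9. The Mef2 genes had Spin1 at 5 and H3K4me3 at 6 of their 7 promoters, and the deacetylase genes at 3 and 5 of their 7. With only the 50% of peaks with the highest scores in each list, Spin1 was at 5 of the 14. When the centre of a peak had to lie inside the promoter, H3K4me3 was at 5 of the 14. With only the RefSeq Select transcript, which stands for the gene, H3K4me3 was at 7 of 8 promoters. With predicted transcripts added there were 29 promoters, of which 8 had Spin1 and 15 had H3K4me3. The shares of all promoters were not computed under these alternative settings, so those above do not apply to these counts.

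Alternative promoters of a gene differed from each other. Mef2c, Hdac7 and Hdac9 have more than 1 promoter, 9 in all, of which 4 had Spin1 and 6 had H3K4me3. Over the 4771 promoters of all genes with at least 2, the shares were 43.9% for Spin1 and 62.4% for H3K4me3. Both genes of the group that had Spin1 at some promoter, Mef2c and Hdac7, also had a promoter without it, as did 67.1% of such genes in the annotation. All 3 had H3K4me3 at some promoters and not at others, which was the case for 52.5% of genes with several promoters and H3K4me3. The split between promoters is therefore common, and the map of the peaks around each start site shows how it falls within each gene.

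**Figure D1:**
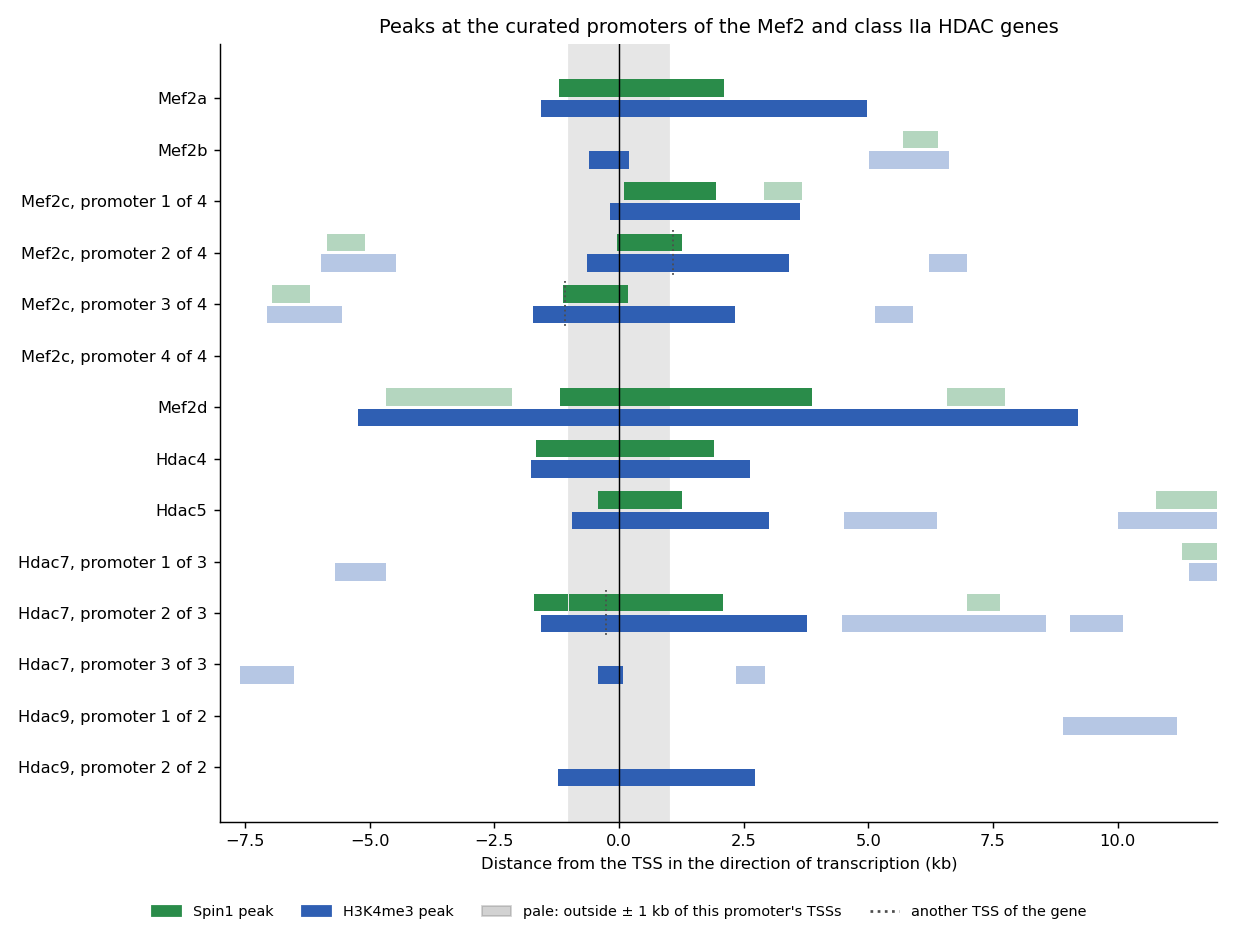
Spin1 and H3K4me3 peaks around each of the 14 curated promoters (P1 to P4, 5′ to 3′), drawn by distance from the start site in the direction of transcription, in kb, where pale bars are peaks that do not reach the 1 kb on either side of that start site. The 8 promoters with Spin1 all carry H3K4me3 as well, and 3 promoters carry neither.

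Base composition at the start sites was compared with occupancy. The sequences of the 200 bases that end 7 bases before the start site are given to show the CpGs there, in capitals, for the 7 promoters where this stretch touches no curated or predicted exon. They read 5′ to 3′ on the strand of the gene and come from the GRCm38 genome at RefSeq start sites. Mef2d, Hdac4 and Hdac5 had both marks, Mef2b had H3K4me3 alone, and Mef2c promoter 4, Hdac7 promoter 1 and Hdac9 promoter 1 had neither.
Mef2b, chr8:70152555-70152754, plus strand: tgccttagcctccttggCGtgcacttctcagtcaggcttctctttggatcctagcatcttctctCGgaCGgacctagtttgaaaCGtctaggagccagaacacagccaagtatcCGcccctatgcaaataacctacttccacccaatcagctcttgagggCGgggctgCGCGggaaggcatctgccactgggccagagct
Mef2c promoter 4, chr13:83573401-83573600, plus strand: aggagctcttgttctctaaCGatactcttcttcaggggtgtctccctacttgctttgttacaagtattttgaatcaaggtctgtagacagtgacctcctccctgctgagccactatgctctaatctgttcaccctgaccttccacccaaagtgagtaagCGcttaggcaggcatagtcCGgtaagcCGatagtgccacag
Mef2d, chr3:88142166-88142365, plus strand: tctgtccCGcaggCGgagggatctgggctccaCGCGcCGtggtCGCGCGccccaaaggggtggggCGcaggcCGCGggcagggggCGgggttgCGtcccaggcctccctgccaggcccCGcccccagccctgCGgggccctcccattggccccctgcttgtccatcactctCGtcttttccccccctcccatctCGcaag
Hdac4, chr1:92180348-92180547, minus strand: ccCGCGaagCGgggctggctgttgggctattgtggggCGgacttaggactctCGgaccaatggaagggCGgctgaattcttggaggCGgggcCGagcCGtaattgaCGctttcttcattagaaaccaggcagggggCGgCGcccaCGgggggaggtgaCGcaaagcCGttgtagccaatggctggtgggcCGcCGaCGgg
Hdac5, chr11:102230179-102230378, minus strand: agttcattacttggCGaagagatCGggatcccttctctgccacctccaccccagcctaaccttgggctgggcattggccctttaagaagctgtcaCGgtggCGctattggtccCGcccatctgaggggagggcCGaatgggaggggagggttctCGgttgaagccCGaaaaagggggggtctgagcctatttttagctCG
Hdac7 promoter 1, chr15:97844509-97844708, minus strand: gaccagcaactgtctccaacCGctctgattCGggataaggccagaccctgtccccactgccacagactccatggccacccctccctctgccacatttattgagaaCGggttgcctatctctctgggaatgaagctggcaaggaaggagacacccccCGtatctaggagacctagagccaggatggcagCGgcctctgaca
Hdac9 promoter 1, chr12:34917102-34917301, minus strand: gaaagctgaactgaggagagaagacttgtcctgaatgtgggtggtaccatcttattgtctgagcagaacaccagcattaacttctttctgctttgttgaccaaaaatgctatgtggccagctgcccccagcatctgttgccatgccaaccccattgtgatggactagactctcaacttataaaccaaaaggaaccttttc
These stretches hold 17 CpGs in Mef2d, 18 in Hdac4 and 9 in Hdac5, compared with 8 in Mef2b, 5 in Hdac7 promoter 1, 4 in Mef2c promoter 4 and 0 in Hdac9 promoter 1.

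The CpG ratio, the number of CpGs over the number that the C and G content gives, was taken over 250 bases on each side of the start site. A ratio of at least 0.6 was found at 7 of the 14 promoters and at 45.3% of all promoters. All 7 had both marks, where the shares over all promoters with such a ratio were 87.2% for Spin1 and 98.2% for H3K4me3. Of the 7 with a lower ratio, 1 had Spin1 and 4 had H3K4me3, beside 16.0% and 28.9% of all promoters with a ratio under 0.6. Over all promoters the median ratio was 0.81 with both marks, 0.54 with H3K4me3 alone and 0.20 with neither. High ratios went with both marks here as in the annotation, but the members with H3K4me3 alone did not all lie near the median of their class.

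Single promoters spanned nearly the whole range. Hdac4 had the highest ratio of the group, 1.04, above that of 96.8% of all promoters, with 64 CpGs in the window. Mef2a followed with 0.96, then Hdac5 with 0.88, Mef2c promoter 3 with 0.87, Mef2d with 0.84, Hdac7 promoter 2 with 0.80 and Mef2c promoter 2 with 0.76. Below the limit came Mef2b with 0.50, Mef2c promoter 1 with 0.31, Hdac7 promoter 1 with 0.27, Hdac9 promoter 2 with 0.20, Mef2c promoter 4 with 0.17, Hdac7 promoter 3 with 0.13 and Hdac9 promoter 1 with 0.04. Mef2c promoter 1 was the low-ratio promoter that had Spin1, and it had none when promoters ended 0.1 kb after the start site, when the peak centre had to lie inside the promoter, or with the 50% of peaks with the highest scores. Of the promoters with H3K4me3 alone, Hdac9 promoter 2 and Hdac7 promoter 3 lay below the 10th percentile of that class, 0.21, and below Hdac7 promoter 1, which had neither mark.

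**Figure D2:**
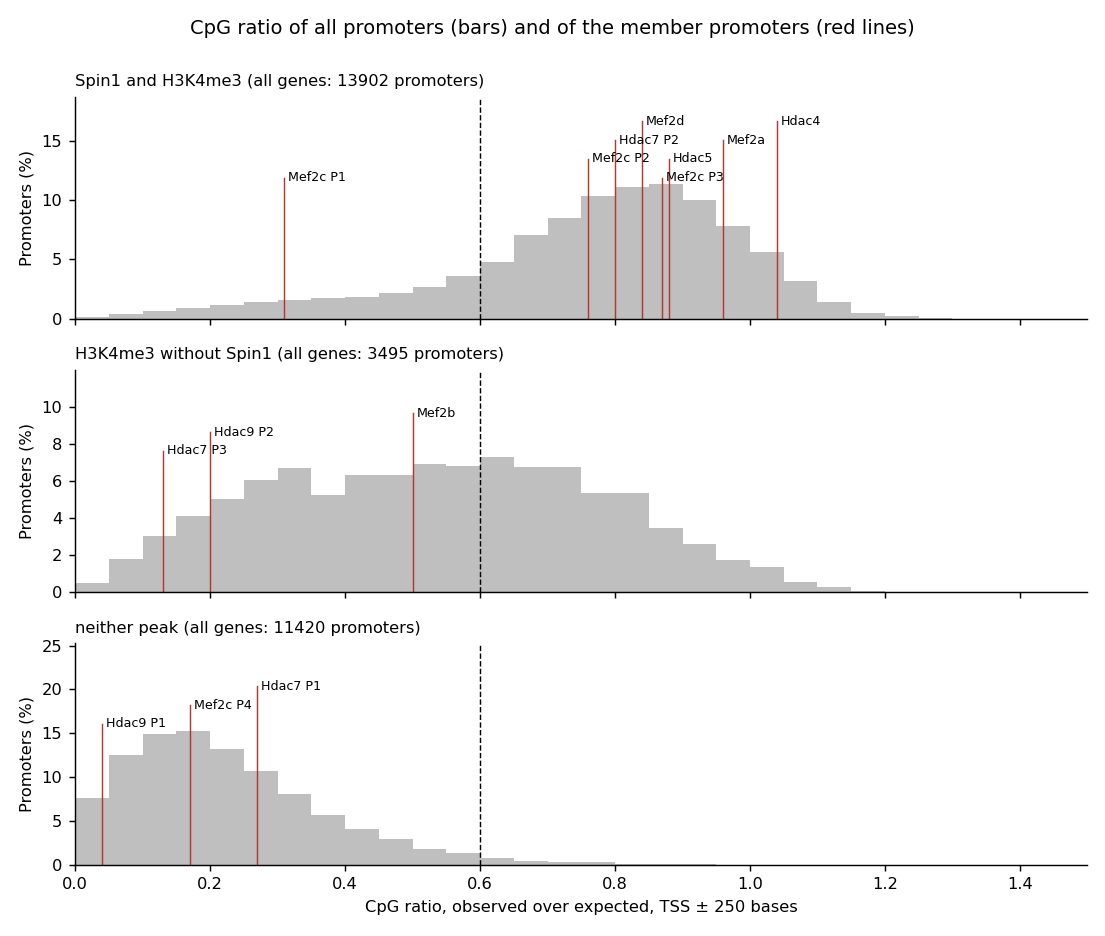
CpG ratio over 250 bases on each side of the start site for all promoters with both marks, with H3K4me3 alone and with neither (share of promoters per bin, in percent), with the 14 member promoters marked. The 7 member promoters at or above 0.6 all lie with the promoters that have both marks.

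Mef2a, a broadly expressed member of the family, spans 145.3 kb on the minus strand of chromosome 7 (chr7:67231163-67376456). Its 7 curated transcripts begin at the same base, 67372858, and code for proteins of 351 to 500 residues. A Spin1 peak of 3312 bp at chr7:67370745-67374056 covered this start site with a score of 3100, and it was wider than 84.2% of Spin1 promoter peaks. It lay inside an H3K4me3 peak of 6545 bp at chr7:67367889-67374433, which reached 1575 bp upstream and 4969 bp into the gene. Spin1 covered 50.6% of that H3K4me3 peak. No other peak of either kind lay in the remaining gene, and the only others within 50 kb were a pair beyond its 3′ end at the promoters of Lysmd4 and 1700112J16Rik.

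Mef2d, which is also expressed in dividing myoblasts, is a compact gene of 30.2 kb on chromosome 3 (chr3:88141941-88172091) with 1 promoter. Its H3K4me3 peak was the widest at any promoter of the 8 genes. It ran over 14440 bp at chr3:88137143-88151582, from 5229 bp upstream of the start site at 88142372 to 9210 bp downstream, and was wider than 99.8% of H3K4me3 promoter peaks, whose median width was 3029 bp. Beneath it lay 3 Spin1 peaks that together covered 60.8% of it. The one at the start site, chr3:88141185-88146248, was 5064 bp wide with a score of 3100, wider than 97.6% of Spin1 promoter peaks, whose median was 2167 bp. A further Spin1 peak ended 2.1 kb upstream of the start (chr3:88137689-88140231, score 1042) and another in intron 1 (chr3:88148943-88150113, score 440.1). Spin1 at Mef2d therefore formed separate blocks under a continuous domain of H3K4me3. Downstream of the gene, both marks lay at 1700113A16Rik and at a promoter cluster of Gm3764, Mir9-1, Mir3093 and Gm25641, while H3K4me3 alone lay at another promoter of Gm3764 and at chr3:88200018-88201892.

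Mef2c, which is required for the heart and for muscle fibre integrity, covers 163.1 kb of chromosome 13 (chr13:83504017-83667079) and has 18 curated transcripts from 4 promoters. All 18 share the start codon at 83575677, so the promoters differ in the noncoding exons that precede it, and proteins range from 381 to 474 residues. Promoter 1, at 83504034, serves 5 transcripts and lies 19.6 kb before promoter 2. Promoters 2 (83523656, 3 transcripts) and 3 (83524743, 8 transcripts, among them the RefSeq Select transcript that stands for the gene) are only 1.1 kb apart, and promoter 4 (83573607, 2 transcripts) lies 48.9 kb further on.

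Occupancy of these 4 promoters fell into 3 separate patterns. At promoter 1, Spin1 began 105 bp after the start site (chr13:83504139-83505982, 1844 bp, score 584), inside an H3K4me3 peak of 3820 bp (chr13:83503844-83507663, score 1999.84). Promoters 2 and 3 shared a Spin1 peak of 1306 bp (chr13:83523622-83524927, score 512) that covered both start sites, within an H3K4me3 peak of 4060 bp (chr13:83523009-83527068, score 3100). Promoter 4 had neither. Both Spin1 peaks had low scores among Spin1 promoter peaks, above 17.6% of them at promoter 1 and 16.2% at the shared peak, and they were wider than 36.4% and 16.6%. Together with a weak peak next to it, Spin1 covered 67.3% of the H3K4me3 peak at promoter 1, and it covered 32.2% of that at promoters 2 and 3.

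Inside Mef2c, weak Spin1 peaks lay in the stretch between promoters 1 and 2. They were at chr13:83506939-83507705 (score 109.9), mostly under the H3K4me3 peak of promoter 1, and at chr13:83517791-83518553 (score 96.5), the latter under an H3K4me3 peak of 1514 bp (chr13:83517679-83519192, score 2298) that ends 4.5 kb before promoter 2. H3K4me3 without Spin1 lay in intron 1 of the Select transcript (chr13:83529879-83530639, score 93.5) and in intron 3, 78.6 kb from its start (chr13:83603384-83605504, score 656). A last H3K4me3 peak lay beyond the 3′ end (chr13:83714775-83716840, score 1389). Spin1 at Mef2c thus ended at promoter 3, while H3K4me3 also occurred further into the gene and beyond it.

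Mef2b, the most divergent Mef2 factor, is 14.7 kb long on chromosome 8 (chr8:70152761-70167488) with 1 curated transcript of 9 exons and 339 residues. It had no Spin1 at its promoter. H3K4me3 there was a peak of 808 bp at chr8:70152163-70152970 with a score of 201, wider than 3.09% of H3K4me3 promoter peaks. A stronger pair lay in intron 1, where an H3K4me3 peak of 1616 bp (chr8:70157767-70159382) had a score of 3100 and the Spin1 peak within it (chr8:70158457-70159159) a score of 113, 5.7 to 6.4 kb after the start site. The strongest signal of the gene thus lay inside it, away from its annotated start.

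The Mef2b coding sequence is also part of another annotated transcript. The readthrough gene Gm45929 begins at 70139499, the start site of its neighbour Borcs8, 13.3 kb before that of Mef2b, and ends with Mef2b at 70167488. It shares 7 of the 9 Mef2b exons and contains all 1020 coding bases of Mef2b within a protein of 349 residues. Its promoter, shared with Borcs8 and next to Rfxank, had an H3K4me3 peak of 3701 bp (chr8:70137697-70141397, score 3100) over a pair of Spin1 peaks with scores of 610 (chr8:70138206-70139251) and 1494 (chr8:70139334-70140864). The sequence that codes for Mef2b therefore had Spin1 at an annotated start, though not at the start of the transcript named Mef2b. Both marks were also at the nearby promoters of Nr2c2ap, Tmem161a and Slc25a42, Spin1 alone at chr8:70129333-70130101 (score 119), and H3K4me3 alone at chr8:70210380-70210955 (score 56.4).

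Hdac4, which in muscle links nerve activity to Mef2 targets, spans 266.9 kb of chromosome 1 (chr1:91928779-92195702) and has 1 curated transcript for 1076 residues. Its start at 92180341 had a Spin1 peak of 3575 bp (chr1:92178434-92182008, score 3100), wider than 87.8% of Spin1 promoter peaks. The H3K4me3 peak was 4408 bp wide (chr1:92177708-92182115, score 3100), and Spin1 covered 81.1% of it. This was the largest share among the promoters of the Mef2 and class IIa genes that had both marks. Within the gene, Spin1 peaks without H3K4me3 lay in intron 2 (chr1:92099249-92100149, score 247) and intron 24 (chr1:91941632-91942271, score 116), and H3K4me3 without Spin1 in intron 2 (chr1:92074967-92076487, score 349). A weak pair lay 34.6 kb upstream (Spin1 chr1:92214903-92215568, score 108; H3K4me3 chr1:92214887-92216109, score 241). Spin1 and H3K4me3 were thus closely matched at the start of Hdac4 and apart at the 3 peaks inside it.

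Hdac5, which is exported from the nucleus when myoblasts differentiate, is a gene of 34.4 kb on chromosome 11 (chr11:102195747-102230172), and its 6 curated transcripts begin at 102230172. At this start Spin1 gave a peak of 1688 bp with a score of 1360.04 (chr11:102228906-102230593), narrower than at Mef2a, Mef2d or Hdac4, under H3K4me3 of 3955 bp with a score of 3100 (chr11:102227164-102231118). The promoter of the microRNA gene Mir8101 lies under the same peaks. Spin1 covered 42.7% of the H3K4me3 peak.

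The body of Hdac5 carried more than its start. An H3K4me3 peak of 5938 bp (chr11:102214224-102220161, score 3100) lay 10.0 to 15.9 kb downstream of the start over exon 3, with Spin1 peaks of 2562 bp (chr11:102216834-102219395, score 1992) and 1114 bp (chr11:102215243-102216356, score 210.2) covering 61.9% of it. A further H3K4me3 peak reached from intron 3 over exons 4 to 6 (chr11:102206466-102210354, score 2528), with a Spin1 peak under its intron 3 part (chr11:102207428-102208957, score 648). H3K4me3 without Spin1 lay over exon 2 (chr11:102223803-102225657, score 1202) and exons 12 to 13 (chr11:102201704-102202728, score 215). The start codons that the Hdac5 transcripts use, at 102224755, 102218566 and 102207137, fall inside the H3K4me3 peaks over exon 2, exon 3 and exons 4 to 6. In this gene the Spin1 peak with the highest score was not at the annotated promoter but overlapped exon 3. Around the gene, both marks lay at Tmem101, Lsm12, G6pc3 and Hrob, H3K4me3 alone at Nags, and H3K4me3 alone away from promoters at chr11:102244493-102246445, chr11:102276171-102277085 and chr11:102277761-102278286.

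Hdac7, best known from thymocytes and blood vessels, extends over 51.8 kb of chromosome 15 (chr15:97792661-97844502) with 10 curated transcripts from 3 promoters. Promoter 1 (97844502) lies 13.0 kb before the Select start and its 4 transcripts code for 868 to 953 residues, promoter 2 (97831495 and 97831767) holds 5 transcripts that reach 975 residues, and promoter 3 (97814863) lies 16.6 kb after the Select start and gives a protein of 851 residues. Promoter 2 had Spin1 at chr15:97829411-97832492 (3082 bp, score 3100), with a small upstream Spin1 peak at chr15:97832515-97833204 (690 bp, score 117), and H3K4me3 at chr15:97827718-97833066 (5349 bp, score 3100). Spin1 covered 67.9% of that H3K4me3 peak. Promoter 1 had neither mark, and promoter 3 had a 515 bp H3K4me3 peak (chr15:97814777-97815291, score 64.4), wider than 0.137% of H3K4me3 promoter peaks. Both marks thus concentrated on the promoter of the longest protein.

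Elsewhere in Hdac7, an H3K4me3 peak of 4087 bp (chr15:97822936-97827022, score 3100) in intron 1 lay 4.5 to 8.6 kb downstream of the Select start, over the windows of 3 start sites of predicted Hdac7 transcripts, with a Spin1 peak of score 127 beneath it (chr15:97823857-97824514). The other peaks away from promoters were H3K4me3 alone and had scores of 377 or less. They lay inside the gene at chr15:97811929-97812521 and chr15:97821390-97822459, and in the flanks at chr15:97787216-97787872 and chr15:97849182-97850189. The neighbours Rapgef3 and Slc48a1 had both marks, and a further peak at a promoter of Slc48a1 was H3K4me3 alone (chr15:97781867-97783572, score 1859).

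Hdac9, whose short isoform represses Mef2 without a deacetylase domain, is the longest of the genes at 869.5 kb (chr12:34047580-34917095). Promoter 1 (34917095) starts the Select transcript of 1088 residues, and promoter 2 (34528889), 388.2 kb downstream, starts the transcript of 588 residues. Promoter 1 had neither mark. Promoter 2 had H3K4me3 without Spin1, in a peak of 3934 bp with a score of 2645 (chr12:34526173-34530106), wider than 72.0% of H3K4me3 promoter peaks. Of the curated starts of Hdac9, H3K4me3 thus lay at that of the short isoform and not at that of the long one. The same peak also overlapped exon 4 of the Select transcript and the windows of 7 start sites of predicted Hdac9 transcripts. Which transcript it belongs to was not tested.

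The rest of Hdac9 held little Spin1. Its only Spin1 peak lay in intron 27, 840.7 kb from the Select start (chr12:34075519-34076405, score 177), under an H3K4me3 peak with a score of 373 (chr12:34075170-34076429). H3K4me3 alone lay 8.9 to 11.2 kb downstream of promoter 1 in intron 2 (chr12:34905908-34908197, 2290 bp, score 3100), over the windows of 4 start sites of predicted Hdac9 transcripts. Weaker H3K4me3 lay in intron 3 (chr12:34713646-34714754, score 569), in intron 4 (chr12:34498367-34498962, score 58.9) and beyond the 3′ end (chr12:34040128-34041134, score 187). In Hdac9, then, 5 of the 6 H3K4me3 peaks had no Spin1 peak, among them the peak with the highest score in the gene.

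**Figure D3:**
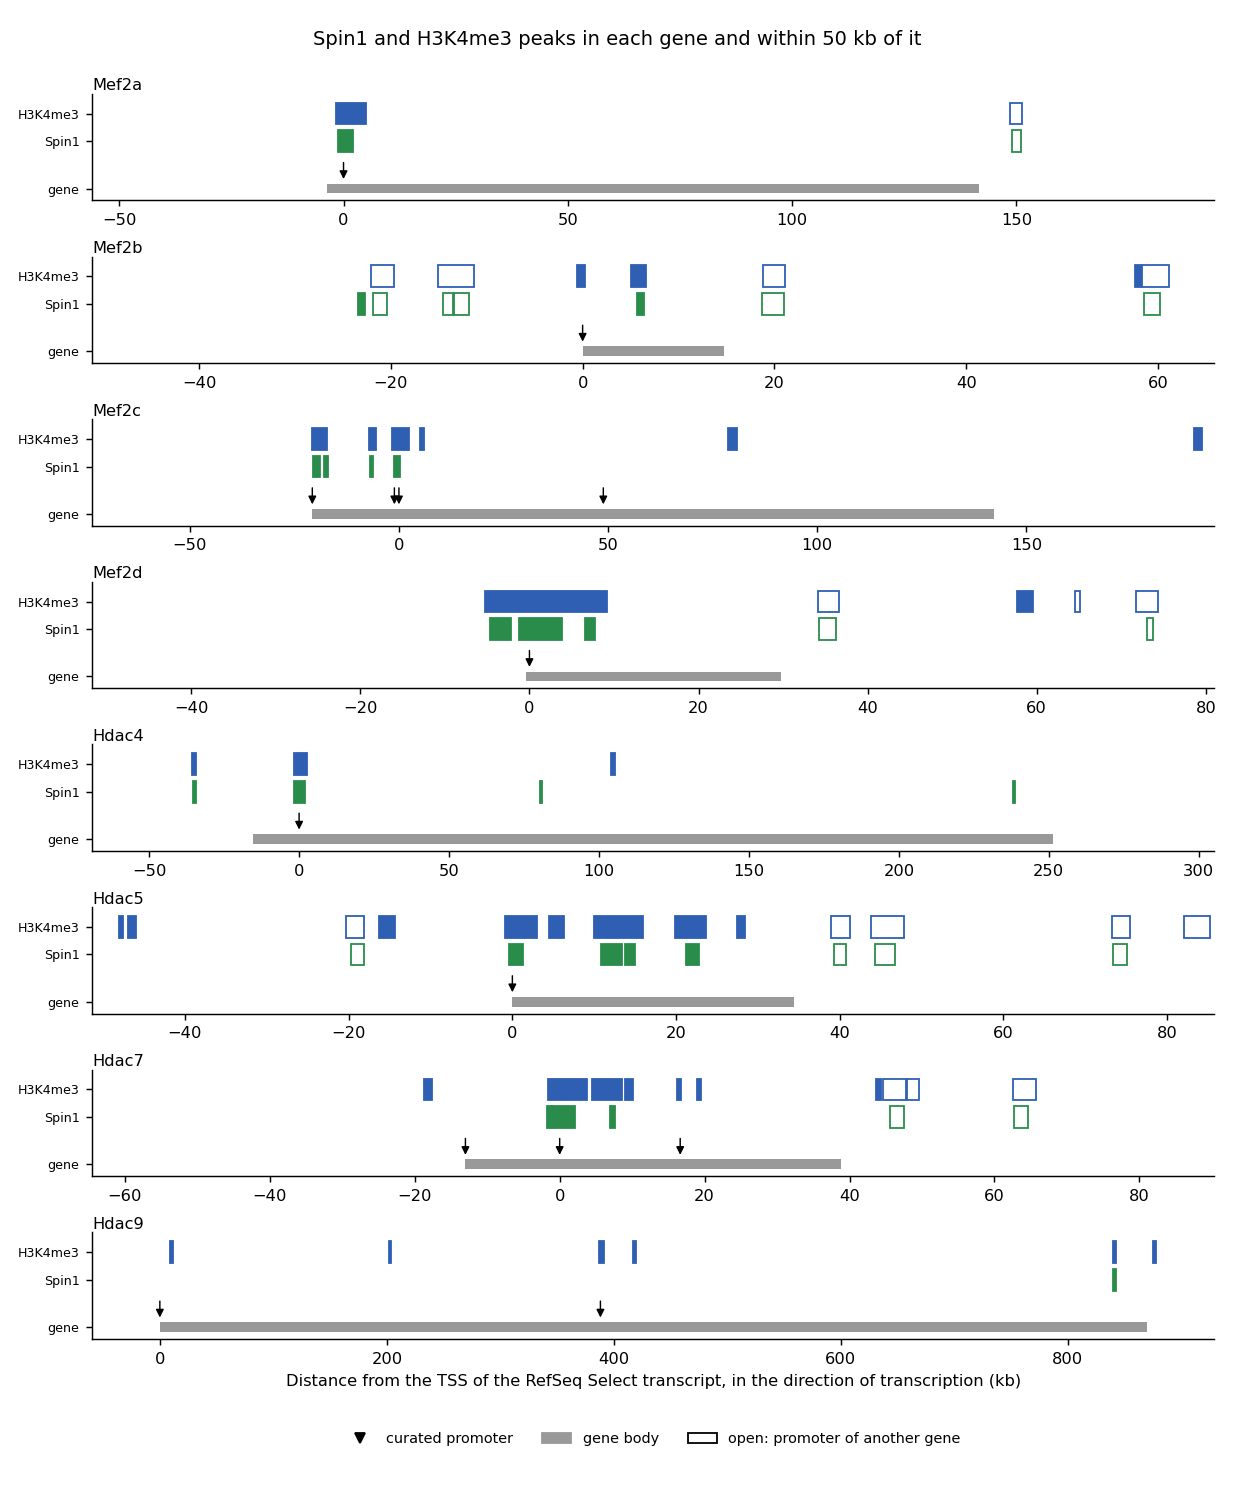
Spin1 and H3K4me3 peaks over each of the 8 genes and the 50 kb on each side, by distance from the start site of the Select transcript in kb, with open boxes for peaks at promoters of other genes and arrows for curated promoters. The map shows 1 Spin1 peak and 6 H3K4me3 peaks at Hdac9, and 8 and 13 at Hdac5.

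Across the 8 genes with 50 kb on each side there were 36 Spin1 peaks and 52 H3K4me3 peaks. Of the Spin1 peaks, 8 lay at promoters of the 8 genes, 14 at promoters of other genes, 11 inside the genes and 3 in the flanks. The 14 peaks away from any promoter were 38.9% of the Spin1 peaks here, beside 31.0% of the whole list. For H3K4me3, 10 lay at promoters of the 8 genes, 16 at those of others, 16 inside and 10 in the flanks, so that 26 of the 52 were away from promoters, beside 52.5% of the list. Neighbouring genes thus contributed more promoter peaks than the 8 genes themselves. The counts away from promoters depended on the settings. With only the 50% of peaks with the highest scores in each list, they were 1 for Spin1 and 8 for H3K4me3. With 100 kb on each side, they were 16 and 40.

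The marks overlapped unevenly. Of the 36 Spin1 peaks, 33 (91.7%) overlapped H3K4me3, where 91.3% of all Spin1 peaks did. Away from promoters this held for 11 of 14 Spin1 peaks (78.6%), where the share was 72.6% of such peaks in the list. Read from the other side, 7 of the 26 H3K4me3 peaks away from promoters (26.9%) overlapped Spin1, compared with 17.6% in the list. Spin1 was in most cases inside H3K4me3, and most H3K4me3 peaks away from promoters had no Spin1.

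Peaks away from promoters were smaller than those at promoters. The 8 Spin1 peaks at promoters of these genes had a median width of 2463 bp and the 14 away from promoters a median of 828.0 bp, with 8 of the 14 at scores under 200. In the whole list the median width of Spin1 peaks away from promoters was 768.0 bp. The deacetylase loci held 19 H3K4me3 peaks away from promoters in 1.62 Mb, or 11.7 per Mb, and the Mef2 loci 7 in 0.75 Mb, or 9.29 per Mb. For Spin1 the order was the other way, with 8 such peaks or 4.93 per Mb in the deacetylase loci and 6 or 7.97 per Mb in the Mef2 loci. Hdac9 set that order, since the deacetylase loci without it held 7 such Spin1 peaks in 0.65 Mb, or 10.7 per Mb, and 14 such H3K4me3 peaks, or 21.4 per Mb. These rates rest on few peaks, and the rates over the loci of all genes were not computed. The plot of widths sets each promoter peak of the 8 genes against all promoter peaks.

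**Figure D4:**
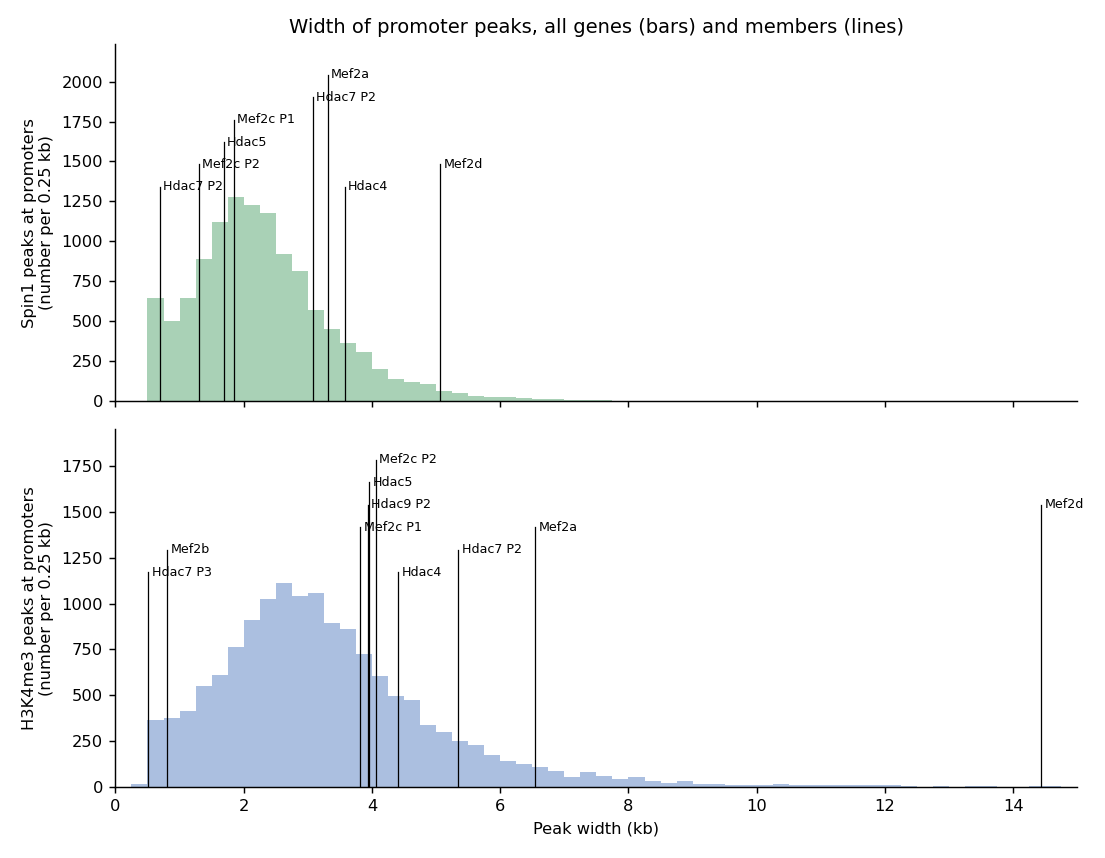
Widths of all Spin1 and H3K4me3 promoter peaks (number of peaks per 0.25 kb of width, with width in kb), with lines for the peaks at the promoters of the 8 genes. The H3K4me3 peak of Mef2d at 14440 bp lies at the far right of its distribution and that of Hdac7 promoter 3 at 515 bp at the far left.

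Motifs were searched on both strands in the 250 bases before and 50 bases after each start site. The MEF2 site was found at Mef2a and Hdac5, 2 of the 14 promoters, beside 2.82% of all promoters. Both sites lie close to the start, with the leading base 2 bases before it at Mef2a and 20 bases before it at Hdac5. They are shown on the strand of the gene, in 30 bases of GRCm38 with the match in capitals, to show how near the start of a Mef2 gene and of a repressor gene they lie.
Mef2a, chr7:67372841-67372870, minus strand: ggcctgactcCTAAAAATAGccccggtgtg
Hdac5, chr11:102230173-102230202, minus strand: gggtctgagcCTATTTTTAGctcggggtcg
The Mef2a match runs across the start site. Start sites of both genes lie under Spin1 and H3K4me3 peaks, as described for each gene. The E-box CAGCTG, which myogenic factors can bind, was found at 3 of the 14 (Hdac7 promoter 3 and both promoters of Hdac9), where 16.1% of all promoters hold it. TATAAA was found at promoters 1 and 2 of Mef2c and promoter 1 of Hdac9, also 3 of the 14, and at 12.9% of all promoters. A match describes letters in a window and says nothing of binding.

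Other deacetylases, genes that act on or with the Mef2 and class IIa proteins, and genes regulated through Mef2 sites were taken in 6 lists by role, 76 genes with Hdac3 in 2 lists. Spin1 was at a promoter of 70 and H3K4me3 at 75, beside 50.7% and 61.9% of all genes and 56.7% and 68.0% of protein-coding genes. When the centre of a peak had to lie inside the promoter, Spin1 was at 60 and H3K4me3 at 48 of the 76. Shares of all genes under that rule were not computed. The other deacetylases, Hdac1, Hdac2, Hdac3, Hdac6, Hdac8, Hdac10 and Hdac11, had both marks, 7 of 7. Their Spin1 peaks ranged from 713 bp with a score of 126 at Hdac6 to 3419 bp with a score of 3100 at Hdac2. All 18 kinases that phosphorylate class IIa deacetylases had both, and their Spin1 peaks ranged from 671 bp at Camk2b to 4626 bp at Camk2d.

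Among the 14-3-3 genes, 6 of 7 had both marks, each with a Spin1 score of 3100, and Sfn had neither. All 11 corepressor partners had both. Of the 19 activators and coactivators, which include the kinases, phosphatase subunits and acetyltransferases that activate Mef2, 18 had Spin1 and 19 had H3K4me3, and Mapk13 was the gene with H3K4me3 alone (2014 bp, score 1777). The lists of regulators thus had Spin1 at a promoter of almost every gene, where 81.7% of all genes with H3K4me3 at a promoter had it. Of the 4 class IIa genes, 3 had Spin1 at a promoter.

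Of the 15 genes known to be regulated through Mef2 sites, all 15 had H3K4me3 and 11 had Spin1, where 81.7% of all genes with H3K4me3 had Spin1. The number with Spin1 is thus close to the general share. Ckm, Myom1, Tcap and Xirp2 had H3K4me3 alone, with scores from 63.2 at Xirp2 to 2404 at Myom1. Other muscle genes of the same list, among them Tnni1, Xirp1, Des and Mb, had both marks. Of those with Spin1, Jun had the widest peak (5759 bp) and Nr4a1 the narrowest (688 bp, score 134), while Myog had 3621 bp with a score of 3100. Myog and Des are also in the myoblast list. The plot of occupancy by list shows these counts beside those of the Mef2 and class IIa genes. Differences between the lists were not tested.

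**Figure D5:**
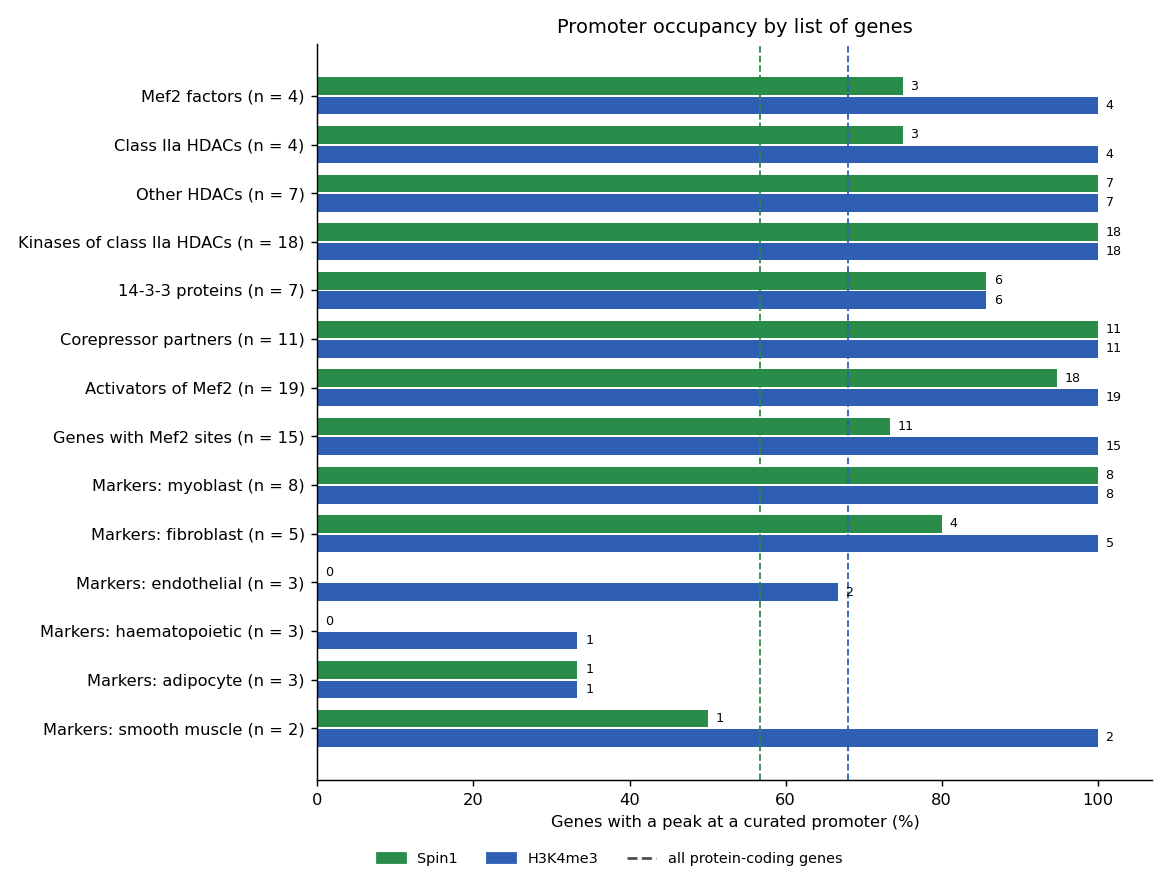
Share of genes in percent with Spin1 and with H3K4me3 at a promoter in the Mef2 and class IIa genes, the lists by role and the cell type markers, with the number of genes beside each bar and dashed lines for all protein-coding genes (56.7% and 68.0%). Among genes with Mef2 sites 11 of 15 have Spin1, and among kinases 18 of 18.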

How the data were processed

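The authors sequenced paired-end ChIP-seq libraries made with 12 PCR cycles, mapped reads to mm10 with Bowtie2 and called peaks against the input with MACS 1.4.2, and kept those at a false discovery rate of at most 1%. The unit of the deposited peak lists is the MACS score (10 × −log10 p). Read depth is not known, and no interval that needs it is given.

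Promoters were taken from curated RefSeq transcripts on GRCm38, annotation release 108.20200622 (45756 transcripts, 28844 promoters, 21 chromosomes) in Python 3.11.15 with SciPy 1.17.1, NumPy 2.4.6 and matplotlib 3.10.9. Gene loci were the gene with 50 kb on each side. The assignment of peaks to promoters was checked on simulated peaks placed at promoters of 200 genes. Start-site sequences of 14 of the 15 member start sites are in the RefSeq promoter table and were identical to the genome.

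The text names the 8 members with every promoter and peak, other genes whose promoters carry peaks in these loci, and list genes lacking either mark. Other list genes with the widest or narrowest peaks were named after their values were seen. The members and lists were chosen with earlier results of these data known. A further list of cell type markers is not reported. Alternatives varied the promoter window, overlap, score limit, transcripts, promoter joining and flank. RNA-seq (22 samples) was not analysed here, and the input was not used beyond the authors' peak calling. No tests were made, since each antibody gave 1 library.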

Additional observations from a re-analysis of the deposited data

How the results depend on the processing

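Over 12 results, 85 alternatives under 14 settings were computed. Of these, 75 stayed within 1.5 times the reported count and 29 equalled it. Of the 10 that moved, 9 were lower and 1 higher. This tally compares counts, not shares, and the number of promoters differs between settings. With predicted transcripts, Spin1 stayed at 8 promoters, but of 29 instead of 14. For other windows, overlap rules, score limits and transcript sets, shares over all genes were not computed. With the peak centre required inside the promoter, H3K4me3 was at 5 of the 8 genes (Mef2a, Mef2d and Hdac5 were lost) and at 5 of 14 promoters, Spin1 was lost at Mef2d, both marks were at 2 genes, and H3K4me3 was at 48 of the 76 genes in the lists by role. With the 50% of peaks with the highest scores (at least 1240.20 for Spin1 and 1532.25 for H3K4me3), Spin1 was at 5 member promoters and lost at Mef2c, and H3K4me3 was lost at Mef2b. In the lists so shortened, 14 Spin1 peaks overlapped H3K4me3, and 1 Spin1 peak and 8 H3K4me3 peaks lay away from promoters. These peak counts fall with the length of the lists and are not shares. With the Select transcript alone, H3K4me3 was at 7 promoters, of 8, and Hdac9 was lost. With 100 kb on each side, 40 H3K4me3 peaks lay away from promoters. Mef2b and Hdac9 had no Spin1 promoter peak in any setting of window, overlap, score, transcripts or joining. The alternatives for the lists by role were chosen after seeing the data. No paired analysis was possible because each antibody gave 1 library. Depth is unknown, so a promoter without a peak is one where none passed the authors' threshold, and weak binding there would not be seen. Differences between genes have no measured spread, and the cells were cultured myoblasts that were not sorted.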
